A study of Mus musculus with 10 samples.

Results

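The comparison described here set MLTC-1 cells given hymeglusin against MLTC-1 cells given DMSO, across all genes with enough counts to be tested. It used 6 of the 10 libraries of the series, the 3 labelled Hymeglusin and the 3 labelled DMSO, and tested 12873 of the 25239 gene symbols in the table. MLTC-1 is an established line from a mouse Leydig cell tumour, and Leydig cells are the cells of the testis interstitium that make testosterone. The cells carried no genetic change or other treatment in the labels beyond the inhibitor or its solvent. The labels give neither the dose nor the duration of the treatment, and they do not say whether the replicates were separate cultures. The p-values then rest on a spread between libraries that may be only technical. The other 4 libraries came from primary Leydig cells, and only the 2 from mice aged 2 months were used, to see which genes those cells also express.

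Hymeglusin is a beta-lactone that inactivates the cytosolic HMG-CoA synthase, the enzyme that joins acetyl-CoA and acetoacetyl-CoA on the way to sterols and isoprenoids. A close relative of this enzyme in mitochondria makes ketone bodies. Isoprenoids are attached to some proteins as membrane anchors. Leydig cells use sterols as the starting material of testosterone and are driven by luteinizing hormone through a G protein-coupled receptor. Lists of sterol, glycolysis and cell cycle genes are left aside here. Single genes tied to these processes appear where a family or the naming rule holds them. The genes are instead ordered by what their products do: transcription factors, secreted proteins, surface proteins, cytoskeletal and enzyme classes, and genes near or at 0 in 1 group.

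Total counts per library lay between 24370094 and 34787330, and the leading principal component, with 62.9% of the variance, separated the 2 groups. With hymeglusin, 3069 genes (23.8% of those tested) were called higher and 3149 (24.5%) lower at an adjusted p under 0.05 by edgeR's quasi-likelihood test. Of these, 368 (2.86%) were at least 2-fold higher and 148 (1.15%) at least 2-fold lower. Scaling by total counts moved the median log2 fold change of all genes from 0.01 to 0.11 and the calls to 4659 higher and 1996 lower, so all changes are relative to the TMM scaling, which holds that median near 0. All 8 Leydig cell markers examined were tested in these cells. Their summed level was 9441 to 9845 CPM with DMSO and 6628 to 6778 CPM with hymeglusin, where CPM is the TMM-scaled count per 1e6 counts of the library, and 5 were called lower and 1 higher. Most markers of other testis cells were scarce: 6 of 7 macrophage, 5 of 6 fibroblast, 5 of 7 Sertoli, 4 of 6 germ cell, 3 of 5 endothelial and 2 of 5 smooth muscle markers stayed under 1 CPM in each of the 6 libraries. The endothelial marker Cdh5, with 1824 to 3586 counts per library, and the Sertoli markers Dhh and Gata1, with 877 to 1425, were the best expressed exceptions in both groups. Ddx4, Pdgfra, Tagln and Des also exceeded 1 CPM in each library, at 1.57 to 4.26 CPM. Of the 13 markers of other cells that could be tested, 6 were called higher and 1, Dhh, lower. Those higher were Csf1r, Pdgfra (log2 0.68), Pecam1 (log2 1.12), Cdh5 (log2 0.30), Myh11 (log2 2.03) and Des (log2 0.58), of fibroblast, endothelial and smooth muscle lists besides the macrophage one. Summed levels were 77.9 to 83.9 CPM with DMSO and 98.6 to 103.7 CPM with hymeglusin for endothelial, 4.38 to 5.05 and 6.49 to 8.08 CPM for smooth muscle, and 1.66 to 2.02 and 2.55 to 3.46 CPM for fibroblast markers. Their part in the results was not tested. In bulk RNA, a change in the make-up of a culture and a change per cell cannot be told apart.

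Changes of at least 2-fold sat mainly among weakly expressed genes. The median level of the 368 higher genes was 1.10 CPM and that of the 148 lower genes 4.59 CPM, against 33.7 CPM for all tested genes. Under 5 CPM, 10.8% of 2742 tested genes were at least 2-fold higher and 2.84% at least 2-fold lower. At 5 CPM or more, the shares were 0.711% and 0.691% of 10131 genes. A gene can pass the count filter through the group in which it is high, so the low end of this comparison favours genes that differ.

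**Figure D1:**
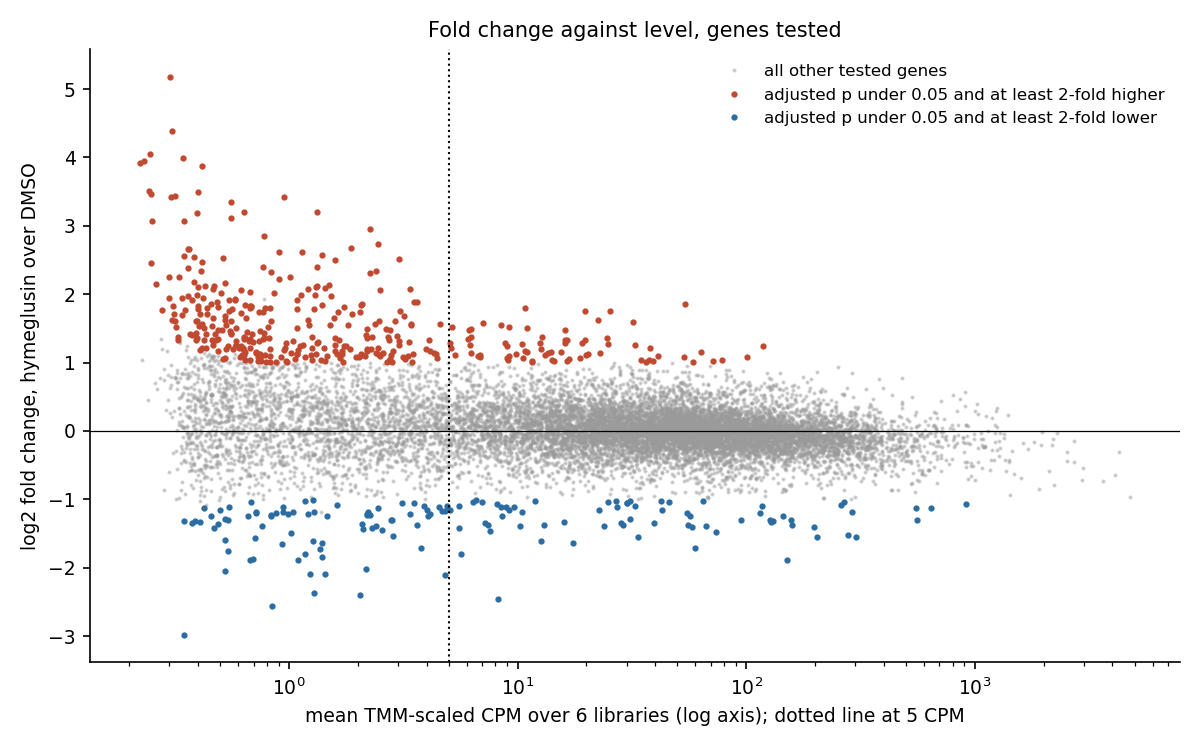
Log2 fold change of hymeglusin over DMSO (vertical axis) against the mean TMM-scaled CPM over the 6 libraries (log axis), 1 point per tested gene. Red and blue points are the 368 genes called and at least 2-fold higher and the 148 called and at least 2-fold lower, of which 296 and 78 lie left of the dotted line at 5 CPM.

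Among transcription factor genes, calls of higher outnumbered calls of lower. Of 1217 symbols assigned to 18 factor families, 774 were tested, 252 (32.6%) were called higher and 115 (14.9%) lower, beside 23.8% and 24.5% of all tested genes. The latter shares are the background for every family count below that rests on TMM scaling. For counts with total-count scaling, the background is 4659 higher and 1996 lower of all 12873 tested genes. At 5 CPM or more the factor genes stood at 34.7% higher and 17.7% lower, against 25% and 29.1% of all genes at that level. At least 2-fold higher were 20 factors (2.58%) and at least 2-fold lower 4 (0.517%), beside 2.86% and 1.15% of all tested genes. At 5 CPM or more these shares were 0.965% and 0.161%, against 0.711% and 0.691% of all genes at that level. The largest family, the numbered ZFP zinc finger genes, many of which encode repressors of repeated DNA, had 108 of 341 tested members higher and 28 lower. Its median log2 fold change was only 0.14, and its summed level was 8579 to 8765 CPM with DMSO and 8801 to 9035 CPM with hymeglusin.

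The factor with the largest rise by the naming rule was Arid5a (chromosome 1, 36307733 to 36324037), a protein known both for binding AT-rich DNA and for stabilising cytokine mRNAs. It stood at 9.05, 8.63 and 9.53 CPM with DMSO and 30.1, 30.7 and 30.5 CPM with hymeglusin (log2 fold change 1.75, SE 0.086, adjusted p = 3.42e-18). The groups were far apart, and the hymeglusin libraries differed from each other by less than 1 CPM. Klf4, a zinc finger factor used in reprogramming, rose from 3.40, 3.42 and 3.62 to 9.37, 9.36 and 8.41 CPM (log2 1.38, SE 0.14). Nr4a1, an orphan nuclear receptor that luteinizing hormone induces in Leydig cells, was at a higher level, at 37.4, 38.6 and 42.2 CPM with DMSO and 87.2, 86.1 and 89.1 CPM with hymeglusin (log2 fold change 1.15, SE 0.06, adjusted p = 1.25e-17). Zfpm1, the GATA cofactor also called FOG1, rose from 47.6, 48.02 and 45.6 to 89.8, 90.2 and 106 CPM (log2 1.02, SE 0.063). In each of these 4 genes every hymeglusin library lay above every DMSO library, which the naming rule required of them.

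Stress and interferon factors were also among the genes that rose. Atf3, a leucine zipper factor of stress responses, went from 5.53, 4.73 and 5.78 to 11.7, 13.8 and 12.1 CPM (log2 1.24, SE 0.12), and its relative Ddit3, induced by endoplasmic reticulum stress, rose at a much higher level from 105, 111 and 114 to 168, 161 and 175 CPM (log2 0.61, SE 0.051). The leucine zipper family as a whole was split, with 14 of 45 members called higher and 14 lower, and 17 higher and 10 lower with total-count scaling. Cebpa, a differentiation factor of fat and myeloid cells, fell from 248, 240.4 and 235 to 151.5, 143 and 154 CPM (log2 -0.69, SE 0.049), and Atf5 fell by 0.42 on the log2 scale (SE 0.05). Irf7, which drives type I interferon genes, stood at 3.23, 2.89 and 2.73 CPM with DMSO and 9.27, 5.998 and 6.32 CPM with hymeglusin (log2 fold change 1.28, SE 0.17, adjusted p = 9.41e-08). The replicate 1 library was the highest of the 3 hymeglusin libraries for Irf7, and the groups did not overlap, as the naming rule required. Of 20 tested STAT, IRF and NF-kB factors, 12 were called higher and 5 lower. Irf1 (log2 0.61) was among the former, and Irf8 (log2 -0.53) and Stat6 (log2 -0.33) among the latter.

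Other factor families differed in their counts. Among E2F, MYB, p53 and HSF factors, 10 of 17 (58.8%) were called higher and 2 (11.8%) lower, beside 23.8% and 24.5% of all tested genes. The repressors E2f7 (log2 0.83, SE 0.074) and E2f8 (log2 0.59, SE 0.059) led them, and Tfdp2, a dimer partner of E2F proteins, fell by 0.26 (SE 0.05). Of 22 SMAD, RUNX, TEAD and TCF/LEF factors, 9 (40.9%) were called higher and 2 (9.09%) lower. The inhibitory Smad7 went from 22.4, 18.01 and 19.5 to 37.4, 34.2 and 36.9 CPM and the bone morphogenetic protein-regulated Smad9 from 5.95, 6.43 and 7.70 to 11.9, 13.996 and 12.2 CPM, whereas Smad3, which carries TGF-beta and activin signals, fell from 62.9, 69.4 and 73.8 to 48.2, 43.99 and 42.1 CPM (log2 -0.62, SE 0.065). Tead1 rose (log2 0.48) and Tead2 fell (log2 -0.50), both with groups that did not overlap. Id1, a target of bone morphogenetic protein signals that blocks basic helix-loop-helix factors, rose from 25.5, 21.9 and 23.7 to 48.7, 42.6 and 40.5 CPM (log2 0.90, SE 0.076). Among HOX genes 4 of 12 (33.3%) were called higher and 0 lower (6 and 0 with total-count scaling), with Hoxb9 from 24.1, 26.05 and 26.4 to 38.4, 42.7 and 39.6 CPM.

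Falling factors were fewer. Zbtb32 (chromosome 7, 30589680 to 30602819), a BTB zinc finger repressor studied in lymphocytes, had the largest fall among factors with a mean of at least 4 CPM, 8.80, 10.3 and 7.09 CPM with DMSO and 2.94, 1.87 and 2.77 CPM with hymeglusin (log2 fold change -1.79, SE 0.17, adjusted p = 5.24e-11). Each hymeglusin library was under 3 CPM and each DMSO library above 7 CPM. Zfp395 fell from 181, 185 and 197 to 107, 97.2 and 107 CPM (log2 -0.85, SE 0.052) and Zbtb8b from 102, 103 and 94.2 to 52.1, 52.9 and 63.3 CPM (log2 -0.83, SE 0.063). Mxi1, an antagonist of MYC at MAX-bound sites, fell from 25.5, 25.99 and 23.4 to 13.7, 14.996 and 14.8 CPM, and Bhlhe40, a repressor of the clock and hypoxia responses, from 97.8, 98.5 and 103 to 58.7, 61.3 and 63.2 CPM (log2 -0.71). All 3 SOX genes that passed the threshold, of 5 tested, were lower, led by Sox12 at 184 to 200.3 CPM with DMSO and 119 to 141 CPM with hymeglusin. Nuclear receptors went both ways, with 7 of 32 called higher and 10 lower, and 13 higher and 6 lower with total-count scaling. Ppara, a receptor for fatty acids, fell by 0.45 (SE 0.049), its partner Rxra by 0.46 (SE 0.051), and Rarb, a retinoic acid receptor, rose by 0.91 (SE 0.16).

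**Figure D2:**
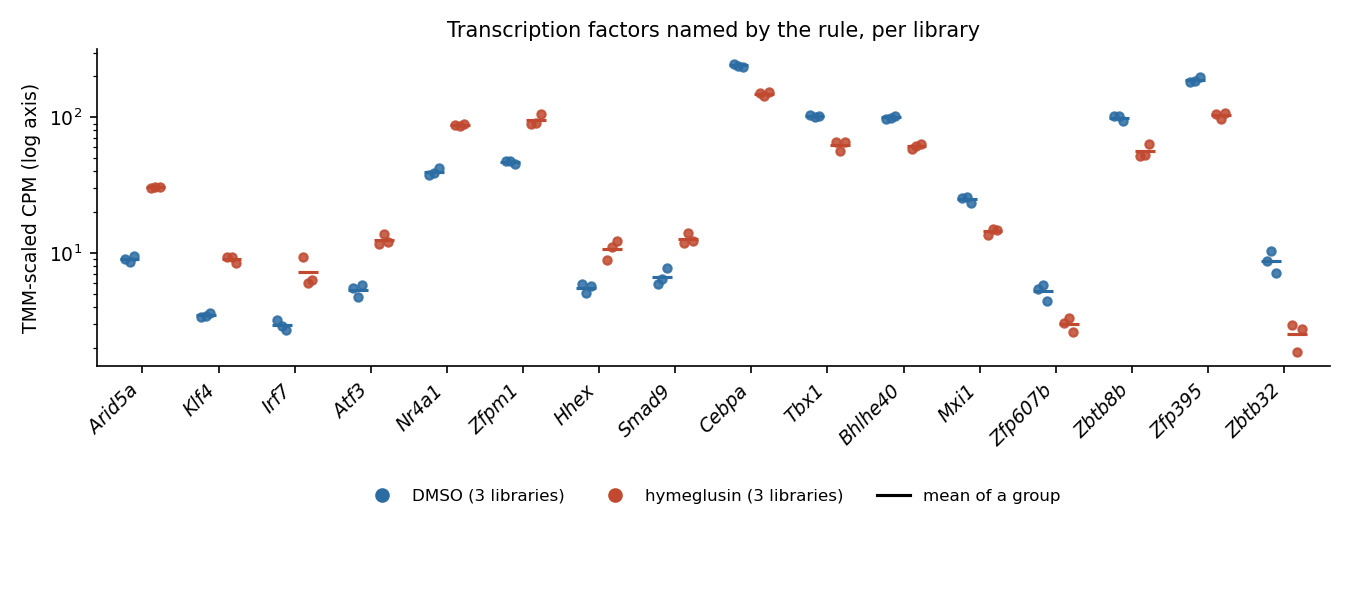
TMM-scaled CPM (log axis) of the 16 transcription factor genes with the largest folds by the naming rule, 1 point per library and a bar at the mean of each group of 3. The 8 genes at the left, from Arid5a to Smad9, are higher in each hymeglusin library than in any DMSO library, and the 8 at the right, from Cebpa to Zbtb32, lower. The naming rule required this separation.

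Secreted proteins changed in both directions, and their falls were the better expressed genes. Of 722 symbols in this block 256 were tested, 78 (30.5%) were called higher and 65 (25.4%) lower. At least 2-fold higher were 28 (10.9%) and at least 2-fold lower 9 (3.52%), beside 2.86% and 1.15% of all tested genes. At 5 CPM or more, 30.3% of 122 were called higher and 39.3% lower, beside 25% and 29.1% of all genes at that level. Under 5 CPM, 26 of 134 (19.4%) were at least 2-fold higher, against 10.8% of all genes at that level.

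Wnt4 (chromosome 4, 137277635 to 137299501), a Wnt ligand needed for female gonad development, had the largest rise among secreted genes with a mean of at least 4 CPM, at 4.63, 5.54 and 4.20 CPM with DMSO and 17.1, 16.8 and 16.6 CPM with hymeglusin (log2 fold change 1.80, SE 0.12, adjusted p = 3.43e-15). Its 3 hymeglusin values were within 1 CPM of each other and far above every DMSO value. Wnt5a, a ligand of the non-canonical branch at a higher level, moved the other way, from 114, 112 and 110.3 to 74.5, 78.3 and 84.8 CPM (log2 -0.50, SE 0.055), and Frzb, a secreted Wnt antagonist (chromosome 2, 80411970 to 80447396), fell from 94.2, 90.3 and 89.7 to 24.8, 27.8 and 30.5 CPM (log2 fold change -1.72, SE 0.066, adjusted p = 4e-21). The symbol lists of the Wnt family and of the secreted block do not hold Frzb. Wnt ligands and modulators on the list gave 4 higher and 5 lower of 13 tested, or 6 and 2 with total-count scaling. In the TGF-beta family, 8 of 27 were called higher and 7 lower. The activin subunit gene Inhba fell from 144, 145 and 149 to 91.1, 87.4 and 96.96 CPM (log2 -0.67) and the inhibin subunit gene Inha from 162, 149 and 159 to 124, 122 and 133 CPM (log2 -0.31).

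Among matrix proteases and matrix glycoproteins, calls of higher outnumbered calls of lower. Of 22 tested proteases and inhibitors of the MMP, ADAMTS and related families, 12 (54.5%) were called higher and 4 (18.2%) lower, beside 23.8% and 24.5% of all tested genes. At least 2-fold higher were 5 (22.7%), beside 2.86% of all tested genes and 10.8% of those under 5 CPM. Mmp11, also called stromelysin 3, rose from 22.6, 21.6 and 23.8 to 39.9, 39.5 and 41.9 CPM (log2 0.84, SE 0.071), Adamtsl5 from 18.8, 20.2 and 21.7 to 35.9, 35.9 and 35.7 CPM (log2 0.82, SE 0.075), and Adamts7 fell from 36.7, 38.6 and 40.3 to 20.3, 20.3 and 22.99 CPM (log2 -0.86, SE 0.075). Of 48 laminins and matrix glycoproteins, 18 (37.5%) were called higher and 10 (20.8%) lower, the latter near the share over all genes. Ecm1 stood at 177, 166 and 175 CPM with DMSO and 319, 317 and 356 CPM with hymeglusin (log2 fold change 0.94, SE 0.051, adjusted p = 3.33e-17), and Hspg2, which encodes the basement membrane proteoglycan perlecan, at 241, 287 and 319.6 CPM with DMSO and 469, 464 and 498 CPM with hymeglusin (log2 0.75, SE 0.071). The 3 DMSO libraries were more spread for Hspg2 than the 3 hymeglusin libraries. Spon1 (chromosome 7, 113765998 to 114043375), which encodes F-spondin, fell from 54.8, 61.8 and 52.7 to 20.5, 21.99 and 24.1 CPM (log2 -1.35, SE 0.073). Collagens were divided, with 4 of 19 called higher and 6 lower, and 7 and 6 with total-count scaling. The 2 chains Col6a1 and Col6a2 moved apart: Col6a1 fell from 1468, 1556 and 1644 to 1151, 1137 and 1198 CPM and the far weaker Col6a2 rose from 4.51, 4.97 and 3.95 to 8.08, 7.03 and 8.86 CPM.

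Hormones, vascular factors and plasma proteins included well expressed fallers. Apln, the ligand of the apelin receptor, fell from 300.1, 289.5 and 280.4 to 151.1, 142 and 149 CPM (log2 fold change -0.98, SE 0.048, adjusted p = 3.76e-18), and Vegfa, the main growth factor of endothelial cells, from 536, 564 and 566 to 296, 296 and 324 CPM (log2 fold change -0.86, SE 0.048, adjusted p = 7.21e-17). Nucb2, the precursor of nesfatin, fell from 118, 125 and 122 to 62.8, 65.8 and 68.8 CPM (log2 -0.89, SE 0.054). Of 19 tested peptide hormone and granin genes, 2 were called higher and 7 lower, the same counts with total-count scaling. Igfbp2, a binding protein of insulin-like growth factors, went from 549.6, 512 and 505 to 381, 346 and 393 CPM (log2 -0.48), and Csf1, the macrophage growth factor, from 119.5, 119.6 and 123 to 86.1, 89.8 and 84.4 CPM (log2 -0.47). Apof, an apolipoprotein, fell from 35.96, 37.4 and 38.5 to 15.6, 16.5 and 19.6 CPM (log2 -1.11, SE 0.081). Muc2, a gel-forming mucin, had the largest fall among secreted genes with a mean of at least 4 CPM and a wide spread, with 11.2, 13.4 and 17.1 CPM with DMSO and 1.36, 1.83 and 4.20 CPM with hymeglusin (log2 fold change -2.45, SE 0.42, adjusted p = 0.00691). Without hymeglusin replicate 3, the highest of its group for Muc2, the log2 fold change was -3.11. The serpins, inhibitors of serine proteases chosen by symbol and including some that stay inside the cell, such as Serpinb9b, gave 7 higher and 1 lower of 16 tested. Serpinb9b rose from 0.595, 0.714 and 0.57 to 4.93, 4.43 and 3.40 CPM and Serpina5, the best expressed one named, from 163, 156 and 150.1 to 199, 194 and 191 CPM. The complement protease gene C1s1 rose from 11.3, 9.14 and 12.3 to 21.9, 23.3 and 21.04 CPM (log2 1.03, SE 0.098).

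**Figure D3:**
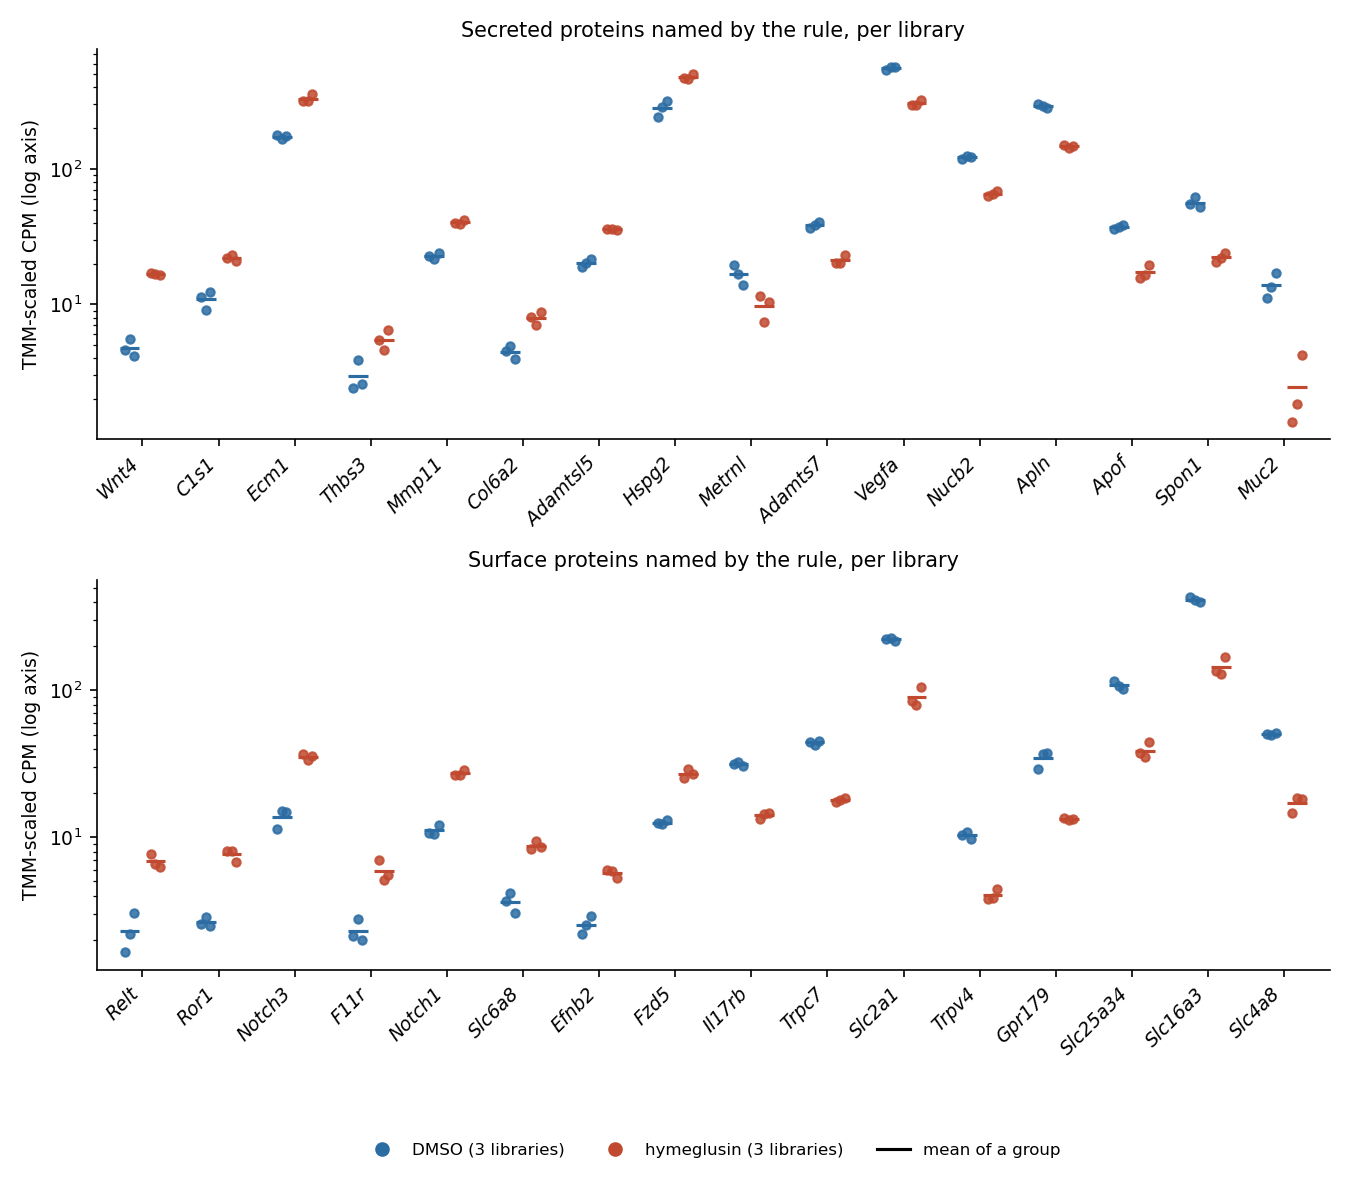
TMM-scaled CPM (log axes) of the 16 secreted (top) and 16 surface protein genes (bottom) with the largest folds by the naming rule, 1 point per library and a bar at the mean of each group of 3. In each panel the 8 genes at the left are higher and the 8 at the right lower in each hymeglusin library than in any DMSO library. The naming rule required this separation.

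Genes of surface receptor, adhesion, channel and carrier families, chosen by symbol and including some intracellular carriers, were called lower more often than higher where they were well expressed. Of 1663 symbols 710 were tested, and 166 (23.4%) were called higher and 208 (29.3%) lower, which became 232 and 156 with total-count scaling. At 5 CPM or more, 40.5% of 457 were called lower and 22.8% higher, beside 29.1% and 25% of all genes at that level. At least 2-fold changes numbered 46 higher (6.48%) and 18 lower (2.54%), beside 2.86% and 1.15% of all tested genes. Of these, 39 and 7 were under 5 CPM, or 15.4% and 2.77% of the block at that level, against 10.8% and 2.84% of all genes there.

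Receptor families had calls in both directions. Notch3 (chromosome 17, 32120820 to 32166896) stood at 11.4, 14.97 and 14.9 CPM with DMSO and 37.1, 33.3 and 35.9 CPM with hymeglusin (log2 fold change 1.36, SE 0.088, adjusted p = 4.68e-15) and Notch1 at 10.8, 10.6 and 12.1 CPM with DMSO and 26.3, 26.7 and 28.6 CPM with hymeglusin (log2 fold change 1.29, SE 0.087, adjusted p = 1.26e-14). Both receptors, which are cut at the membrane to release a transcription regulator, had groups that did not overlap, as the naming rule required. Of 9 tested Notch receptors and ligands 5 were called higher and 1 lower, the ligand Jag1 (log2 -0.43, SE 0.074). Ror1, a receptor of Wnt5a, rose from 2.55, 2.89 and 2.48 to 8.11, 8.06 and 6.81 CPM (log2 1.52, SE 0.16), and Fzd5, a Frizzled receptor, from 12.5, 12.2 and 13.1 to 25.5, 28.96 and 26.99 CPM (log2 1.11, SE 0.085). Of 22 tested receptor tyrosine kinases 9 were called higher and 6 lower, and with total-count scaling 11 were higher and 3 lower. At least 2-fold higher were 4 (18.2%) and at least 2-fold lower 0, beside 2.86% and 1.15% of all tested genes. Kit, the receptor of stem cell factor, was among the lower ones and fell from 596, 605 and 591 to 319, 337 and 329 CPM (log2 fold change -0.86, SE 0.045, adjusted p = 1.6e-17). Lhcgr, the luteinizing hormone receptor, fell from 581, 557 and 549 to 302, 316 and 307 CPM (log2 fold change -0.87, SE 0.046, adjusted p = 2.21e-17), and the oxytocin receptor Oxtr from 816, 873 and 877 to 501, 498 and 522 CPM (log2 fold change -0.75, SE 0.046, adjusted p = 8.16e-16). The 3 hymeglusin libraries lay well below the DMSO libraries in each of these genes. Of 91 tested G protein-coupled receptors 22 (24.2%) were called higher and 23 (25.3%) lower, near the shares over all tested genes. With total-count scaling 31 were higher and 19 lower. The orphan receptor Gpr179 fell furthest among those above the level for naming, from 29.3, 36.8 and 37.6 to 13.4, 13.1 and 13.2 CPM.

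Cytokine receptors went both ways, with 13 of 41 (31.7%) called higher and 10 (24.4%) lower, the latter near the share over all tested genes. Relt, a member of the TNF receptor family, rose from 1.66, 2.203 and 3.05 to 7.69, 6.53 and 6.32 CPM (log2 1.57, SE 0.18), and Tnfrsf12a, the receptor of TWEAK, at a higher level from 64.9, 64.5 and 64.5 to 146, 138 and 128 CPM (log2 fold change 1.08, SE 0.055, adjusted p = 7.51e-18). Il4ra, a subunit of the interleukin 4 receptor, rose from 22.1, 25.2 and 22.8 to 38.9, 39.8 and 42.9 CPM (log2 0.79, SE 0.073). Il17rb fell from 31.5, 32.3 and 30.3 to 13.4, 14.3 and 14.6 CPM (log2 -1.15, SE 0.08), and Il1r1, the interleukin 1 receptor, from 269, 266 and 255 to 169, 182 and 164 CPM (log2 -0.62, SE 0.049). In the TGF-beta receptor family, 6 of 13 were called higher and 5 lower, and Amhr2, the receptor of anti-Mullerian hormone, was among the lower ones (log2 -0.37, SE 0.057).

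Adhesion and junction genes had mixed calls. Itga5, the integrin chain that pairs with beta 1 to bind fibronectin, rose from 41.99, 45.3 and 43.5 to 79.8, 74.2 and 77.7 CPM (log2 0.82, SE 0.059) and was the 1 of 16 tested integrin genes called higher, against 4 called lower (3 and 3 with total-count scaling). The collagen receptor gene Itga11 was lower (log2 -0.28), as was Itga9 at 245 to 258 CPM with DMSO and 181 to 191 CPM with hymeglusin. The tight junction adhesion gene F11r rose from 2.13, 2.77 and 1.996 to 7.03, 5.10 and 5.55 CPM (log2 1.34, SE 0.18), and Efnb2, which encodes ephrin B2, from 2.21, 2.53 and 2.89 to 6.01, 5.93 and 5.29 CPM (log2 1.17, SE 0.17). Gja1, which encodes connexin 43, fell from 375, 374 and 355 to 223, 233 and 234 CPM (log2 -0.68, SE 0.047), the desmosomal cadherin gene Dsc3 from 84.4, 75.3 and 84.4 to 44.8, 49.1 and 44.7 CPM (log2 -0.81, SE 0.061) and the syndecan gene Sdc1 from 51.2, 52.04 and 50.1 to 28.1, 28.3 and 30.995 CPM (log2 -0.81, SE 0.066). Among tetraspanins 5 of 18 were called higher and 8 lower, and 6 and 5 with total-count scaling. Cd151 fell from 390.3, 395 and 419.7 to 321, 286 and 314 CPM and Cd63 rose from 1.91, 1.28 and 1.02 to 4.09, 3.93 and 3.72 CPM. Of 17 tested genes with symbols of the MHC class I kind 7 were called higher and 3 lower. They hold some other genes, such as H2-Ke6, which encodes a steroid dehydrogenase and was called lower (log2 -0.31). B2m, the common light chain of class I proteins, rose from 143, 129 and 128 to 163, 168 and 178 CPM. Reads of near-identical MHC genes may have been split between copies.

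Channels and carriers made up 6 of the 8 fallers of this block with the largest folds by the naming rule, 1 of them a mitochondrial carrier. Trpc7, a cation channel, fell from 44.8, 42.5 and 45.1 to 17.4, 17.9 and 18.6 CPM (log2 fold change -1.29, SE 0.072, adjusted p = 8.9e-17), and Trpv4, a channel opened by heat and cell swelling, from 10.4, 10.8 and 9.78 to 3.81, 3.83 and 4.46 CPM (log2 fold change -1.35, SE 0.13, adjusted p = 1.04e-10). Piezo1, a mechanically gated channel, rose from 13.5, 15.4 and 15.3 to 22.2, 21.2 and 23.9 CPM (log2 0.61, SE 0.087), and Kcnk3, a background potassium channel, fell from 83.98, 87.6 and 90.1 to 40.4, 41.95 and 46.3 CPM (log2 -1.02, SE 0.06). The calcium-activated chloride channel Ano1 fell from 65.7, 65.3 and 59.6 to 31.7, 34.5 and 35.8 CPM (log2 -0.90, SE 0.064). Solute carriers were the largest surface family, and of 210 tested 34 were called higher and 73 lower. With total-count scaling 56 were higher and 55 lower, beside 4659 and 1996 of all 12873 tested genes. Their summed level was 18622 to 19015 CPM with DMSO and 15992 to 16304 CPM with hymeglusin. Slc4a8 (chromosome 15, 100761747 to 100823971), a sodium-driven chloride and bicarbonate exchanger, stood at 50.6, 49.4 and 51.2 CPM with DMSO and 14.6, 18.4 and 18.3 CPM with hymeglusin (log2 fold change -1.56, SE 0.078, adjusted p = 4.33e-18). The mitochondrial carrier Slc25a34 fell from 116, 107 and 102 to 37.3, 35.1 and 44.4 CPM (log2 -1.47, SE 0.069), the lactate exporter Slc16a3 from 429.6, 414 and 401 to 135, 128 and 168 CPM (log2 -1.53, SE 0.073) and the glucose transporter Slc2a1 from 223, 228 and 217 to 84.9, 79.8 and 106 CPM (log2 -1.30, SE 0.074). Slc6a8, the creatine transporter, had the largest rise of the carriers with a mean of at least 4 CPM, from 3.66, 4.17 and 3.05 to 8.32, 9.36 and 8.64 CPM (log2 1.26, SE 0.14).

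Among tubulin, kinesin and actin-linked genes calls of higher outnumbered calls of lower, under each of the 4 scalings. Of 16 tested tubulin genes, whose products form microtubules, 11 were called higher and 0 lower, 14 higher with upper-quartile or total-count scaling. Tubb2a rose from 7.78, 8.63 and 9.25 to 24.1, 23.99 and 23.2 CPM (log2 fold change 1.47, SE 0.093, adjusted p = 2.42e-15) and Tubb6 from 68.1, 71.1 and 71.7 to 158, 152 and 186 CPM (log2 fold change 1.24, SE 0.061, adjusted p = 3.53e-17). The summed tubulin level was 4058 to 4253 CPM with DMSO and 4734 to 5092 CPM with hymeglusin. Kinesins, the motors that walk along microtubules, gave 18 higher and 7 lower of 34, with the mitotic motors Kifc1 (log2 0.85, SE 0.053) and Kif18b (log2 0.83, SE 0.056) up and the neuronal vesicle motor Kif1a down (log2 -0.75, SE 0.061). Of 50 tested actins, tropomyosins and actin-linked proteins, 25 were called higher and 8 lower.

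Ahnak (chromosome 19, 8989284 to 9076935), a giant scaffold protein at the cell membrane, had the smallest adjusted p of the cytoskeletal genes, with 23.2, 23.4 and 23.2 CPM with DMSO and 84.96, 83.4 and 84.4 CPM with hymeglusin (log2 fold change 1.86, SE 0.061, adjusted p = 5.41e-23). The 6 values fell into 2 tight groups, each spanning under 2 CPM. Lmcd1 (chromosome 6, 112273758 to 112330423), a LIM-domain protein of muscle that also restrains GATA factors, rose from 12.03, 11.3 and 11.3 to 39.5, 36.6 and 40.9 CPM (log2 fold change 1.76, SE 0.081, adjusted p = 4.93e-19), and Pdlim7, which joins kinases to actin filaments, from 8.25, 10.1 and 9.53 to 23.7, 20.8 and 25.99 CPM (log2 1.33, SE 0.099). The non-muscle myosin heavy chain gene Myh9 rose from 554, 618 and 639 to 799, 806 and 847 CPM (log2 0.44, SE 0.049) and the nuclear lamina gene Lmna from 176, 174 and 179 to 268, 257 and 271 CPM (log2 0.59, SE 0.047). Pdlim4 (log2 -0.50, SE 0.051) and Fhl2 (log2 -0.50, SE 0.061) fell.

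**Figure D4:**
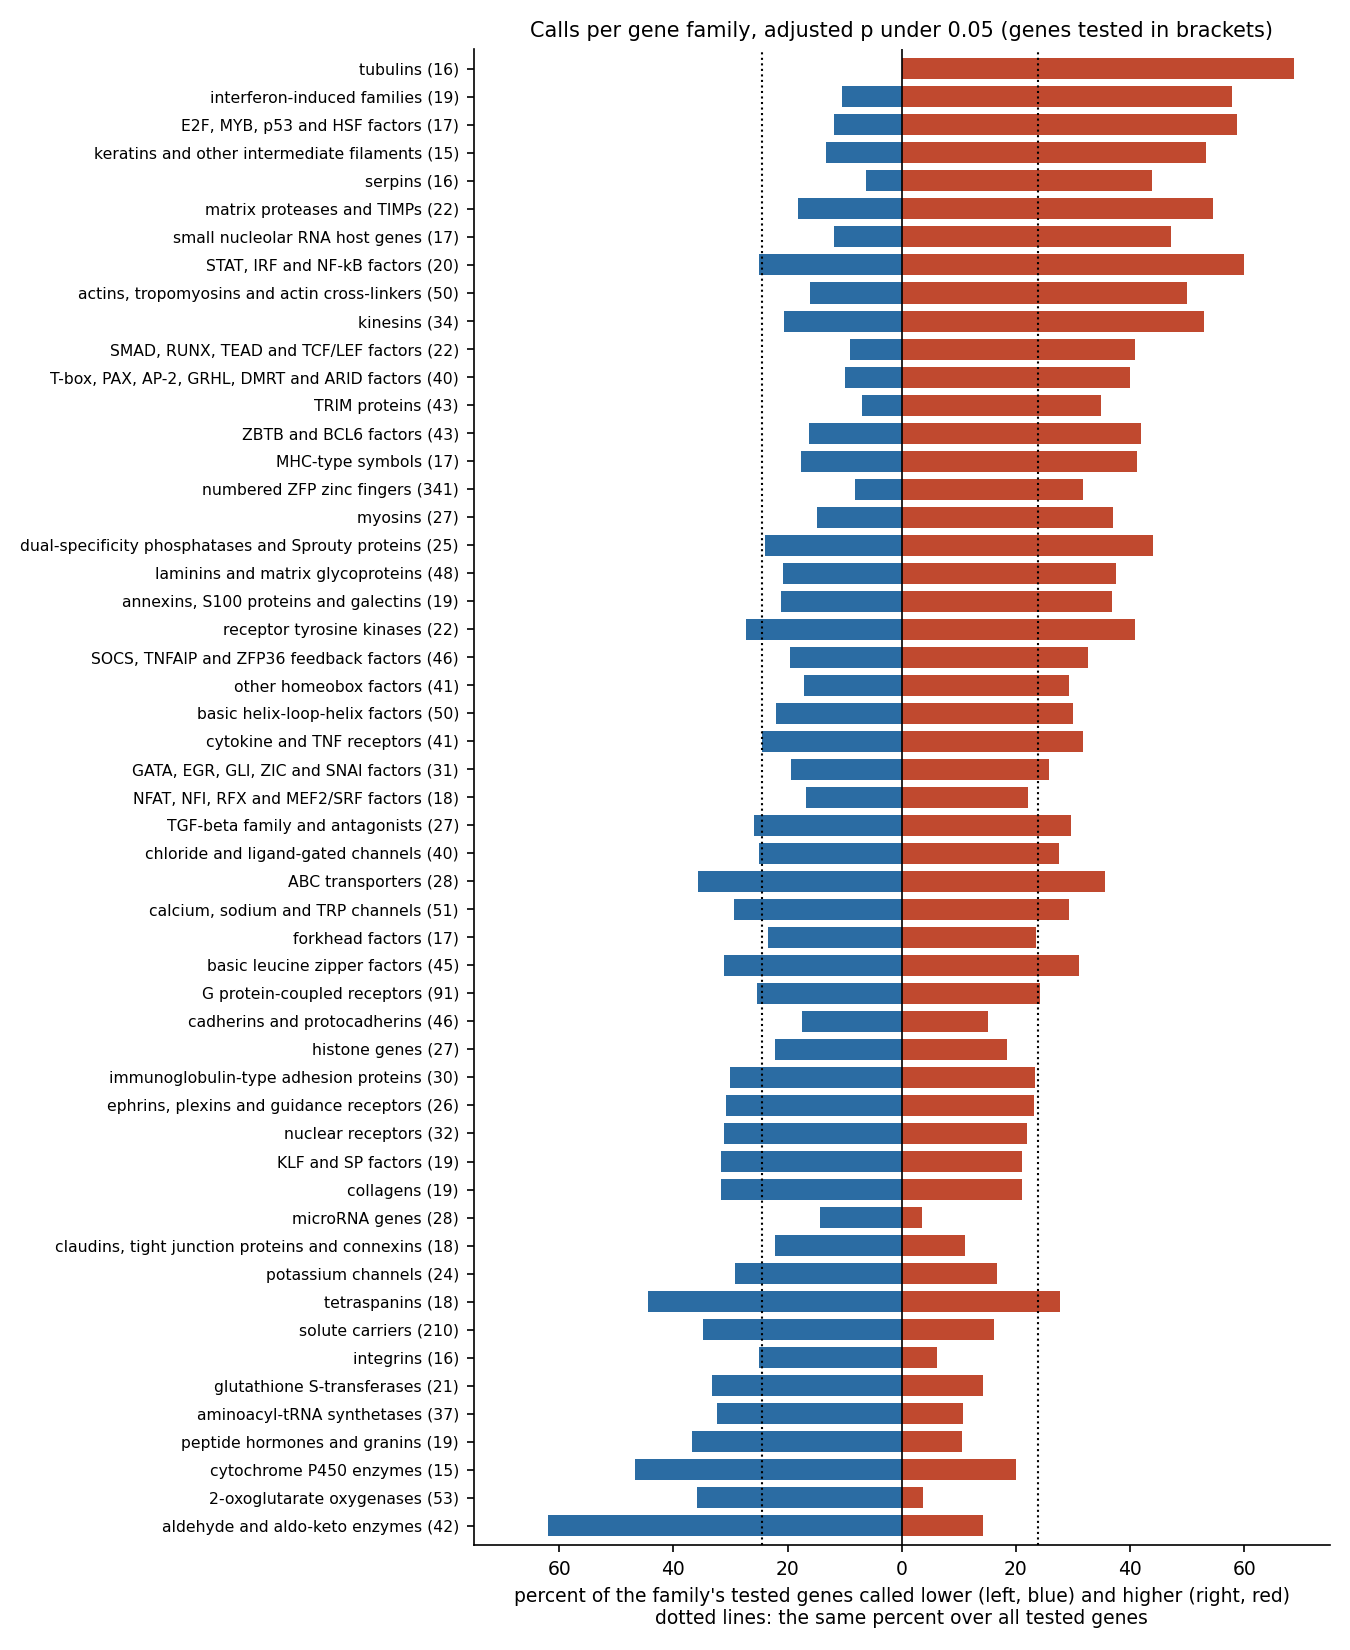
Percent of the tested genes of each family that were called higher (red, right) and lower (blue, left) with hymeglusin at an adjusted p under 0.05, for most families with at least 15 tested genes (number in brackets). Dotted lines mark the shares over all tested genes, 23.8% higher and 24.5% lower. Tubulins, at 68.8% higher and 0% lower, stand at the top, and aldehyde and aldo-keto enzymes, at 61.9% lower and 14.3% higher, at the bottom.

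Oxygen-dependent and aldehyde enzymes had more calls of lower than of higher. The 2-oxoglutarate oxygenases use oxygen and 2-oxoglutarate to hydroxylate or demethylate proteins and nucleic acids. Of 53 tested, 2 (3.77%) were called higher and 19 (35.8%) lower, beside 23.8% and 24.5% of all tested genes, and 13 and 19 with total-count scaling. P4ha2 (chromosome 11, 54100924 to 54131668), a collagen prolyl hydroxylase subunit, fell from 80.8, 85.5 and 85.7 to 29.1, 31.5 and 34.9 CPM (log2 fold change -1.40, SE 0.064, adjusted p = 4.93e-19), and Plod2, a collagen lysyl hydroxylase, from 809, 766 and 714 to 333, 362 and 350.2 CPM (log2 fold change -1.13, SE 0.049, adjusted p = 1.2e-19). Egln1, the prolyl hydroxylase that marks hypoxia-inducible factors for destruction and is itself their target, fell from 226, 198 and 189 to 80.2, 81.2 and 96.02 CPM (log2 fold change -1.25, SE 0.065, adjusted p = 2.83e-15). Tet1, which oxidises methylcytosine in DNA, fell from 7.40, 8.31 and 8.43 to 2.66, 2.77 and 3.55 CPM (log2 -1.42, SE 0.15). Their summed level was 4815 to 4890 CPM with DMSO and 3647 to 3744 CPM with hymeglusin. Of 42 aldehyde dehydrogenases, aldo-keto reductases and related enzymes, 6 were called higher and 26 lower, or 7 and 23 with total-count scaling. Aldh9a1 fell from 444, 466 and 471 to 266, 269 and 274 CPM (log2 -0.77, SE 0.046) and Aldh1l1 from 190.4, 189.8 and 197 to 108, 103 and 108 CPM (log2 -0.86, SE 0.049), and Aldh1a7 rose from 62.5, 61.8 and 59.7 to 102, 103 and 102 CPM (log2 0.74, SE 0.054). Cytochrome P450 genes gave 3 higher and 7 lower of 15, or 5 and 6 with total-count scaling. Cyp17a1, needed for androgen synthesis, fell from 907, 913 and 841 to 404, 380.0 and 428 CPM, and Cyp1b1, which oxidises oestrogens and xenobiotics, from 18.4, 20.9 and 18.2 to 7.13, 5.998 and 5.69 CPM (log2 fold change -1.62, SE 0.11, adjusted p = 1.09e-14).

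Several of the genes with the largest falls outside the listed families are known targets of hypoxia-inducible factors, and promoters of 2 of them are shown with those of P4ha2 and Egln1. Not every known target fell. Car9 was called higher, from 4.89, 3.30 and 3.83 to 5.45, 4.70 and 6.43 CPM (log2 0.48, SE 0.17). Its groups overlapped, and it lost the call in 2 alternative fits. Ankrd37 stood at 8.76, 7.06 and 7.82 CPM with DMSO and 1.33, 1.53 and 2.52 CPM with hymeglusin (log2 fold change -2.10, SE 0.19, adjusted p = 1.13e-11), and Bnip3, a mitophagy receptor, at 497, 438 and 414 CPM with DMSO and 144, 155 and 161 CPM with hymeglusin (log2 fold change -1.55, SE 0.057, adjusted p = 1.01e-19). Hypoxia-inducible factors bind the core ACGTG or GCGTG, searched here on both strands, so that CACGT and CACGC also count and CACGTG counts on both. The 250 bases before each gene's start are given 5′ to 3′ on the gene's strand from RefSeq on GRCm38.p6, with matches in capitals. They lie at chr8:45999851-46000100, minus strand, for Ankrd37, chr11:54100674-54100923, plus strand, for P4ha2, chr7:138909507-138909756, minus strand, for Bnip3, and chr8:124949255-124949504, minus strand, for Egln1. Each of the 4 holds at least 2 matches, but the promoters shown here and below were picked by hand. The promoter of Klf4, which rose, was also searched and holds 2 matches.
Ankrd37: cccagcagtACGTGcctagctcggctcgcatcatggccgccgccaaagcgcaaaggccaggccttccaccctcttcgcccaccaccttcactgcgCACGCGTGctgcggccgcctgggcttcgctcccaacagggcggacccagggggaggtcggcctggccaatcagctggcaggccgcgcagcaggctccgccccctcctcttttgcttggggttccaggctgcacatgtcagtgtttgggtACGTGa
P4ha2: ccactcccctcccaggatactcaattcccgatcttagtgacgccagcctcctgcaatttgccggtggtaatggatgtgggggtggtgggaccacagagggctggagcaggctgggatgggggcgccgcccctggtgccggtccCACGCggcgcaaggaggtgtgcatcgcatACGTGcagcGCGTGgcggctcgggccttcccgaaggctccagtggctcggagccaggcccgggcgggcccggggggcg
Bnip3: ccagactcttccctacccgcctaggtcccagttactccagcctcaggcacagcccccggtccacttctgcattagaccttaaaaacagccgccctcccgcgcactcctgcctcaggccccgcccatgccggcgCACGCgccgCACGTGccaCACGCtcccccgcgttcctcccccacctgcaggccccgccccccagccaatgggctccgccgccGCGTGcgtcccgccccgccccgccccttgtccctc
Egln1: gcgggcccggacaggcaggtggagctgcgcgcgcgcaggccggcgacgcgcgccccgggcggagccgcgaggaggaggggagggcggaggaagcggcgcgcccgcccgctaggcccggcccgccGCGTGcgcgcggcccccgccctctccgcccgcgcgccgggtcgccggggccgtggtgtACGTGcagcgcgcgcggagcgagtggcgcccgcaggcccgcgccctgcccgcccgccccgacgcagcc

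This core is common: it is held by 56.7% of the 10204 promoters of tested genes and by 38.6% of the 27025 promoters of the table. The table covered 110 of the 148 genes at least 2-fold lower and 79.3% of the genes tested, under the 80% set as the minimum, so the check of the core over sets of genes is void and no shares are compared. A match describes letters and not a bound site. Lmcd1, the LIM-domain gene that rose, holds TGACGTCA, the palindromic element of cAMP-responsive factors, which 2.77% of the promoters of tested genes and 1.62% of those of the table hold (chr6:112273508-112273757, plus strand). It is shown with that element and the matches to the hypoxia core in capitals.
Lmcd1: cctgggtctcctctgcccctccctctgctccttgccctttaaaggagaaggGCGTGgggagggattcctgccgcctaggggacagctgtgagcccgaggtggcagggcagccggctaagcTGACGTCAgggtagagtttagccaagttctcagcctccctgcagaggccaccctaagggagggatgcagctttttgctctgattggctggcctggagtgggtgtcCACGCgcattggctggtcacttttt

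Other strong fallers outside the families included enzymes of energy use. Ak4 (chromosome 4, 101416478 to 101467771), a mitochondrial adenylate kinase, fell from 247, 238 and 231 to 63.5, 61.4 and 68.2 CPM (log2 fold change -1.89, SE 0.053, adjusted p = 5.73e-25) and had the smallest adjusted p of the genes named. Pdk1, which shuts pyruvate dehydrogenase, fell from 313, 309 and 296 to 102, 102 and 107 CPM (log2 fold change -1.56, SE 0.049, adjusted p = 1.4e-23), and Gys1, the muscle-type glycogen synthase, from 281, 286 and 295 to 98.6, 106 and 119 CPM (log2 fold change -1.41, SE 0.055, adjusted p = 6.57e-21). Tmprss7, a membrane-bound serine protease, fell from 24.8, 28.3 and 26.3 to 8.99, 8.80 and 7.78 CPM (log2 -1.64, SE 0.093). The leading risers outside the families included Mybpc3, the cardiac myosin-binding protein C, from 10.4, 12.3 and 10.2 to 36.2, 33.3 and 32.8 CPM (log2 fold change 1.62, SE 0.087, adjusted p = 2.55e-17), and the phospholipase Plcd1, from 6.72, 6.37 and 8.35 to 18.6, 17.1 and 19.7 CPM (log2 1.38, SE 0.11). Tor3a, an ATPase of the torsin family, rose from 4.97, 4.61 and 4.68 to 14.4, 14.7 and 11.7 CPM (log2 1.51, SE 0.12).

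Among families induced by interferon calls of higher outnumbered calls of lower. Of 19 tested genes in families induced by interferon, 11 (57.9%) were called higher and 2 (10.5%) lower, beside 23.8% and 24.5% of all tested genes. At least 2-fold higher were 7, and the list median log2 fold change was 0.97. The list's median level was only 0.768 CPM, where a gene can pass the count filter through its high group. Of all tested genes under 5 CPM, 10.8% were at least 2-fold higher. The best expressed named riser was Ifi27, from 104, 102 and 98.3 to 179, 143 and 156 CPM (log2 0.65, SE 0.06), and the abundant Ifitm2, which encodes a membrane protein that limits virus entry, fell from 278, 262 and 270.4 to 216, 201 and 221 CPM (log2 -0.34, SE 0.048). The summed level of these families overlapped between groups, at 474 to 497 CPM with DMSO and 474 to 534 CPM with hymeglusin. Ddx58, which encodes the RNA sensor RIG-I, rose from 4.63, 3.16 and 2.81 to 13.5, 9.46 and 8.64 CPM (log2 fold change 1.58, SE 0.17, adjusted p = 1.01e-08), and Psmb8, a subunit of the immunoproteasome, from 5.65, 6.31 and 5.13 to 17.8, 14.9 and 16.4 CPM (log2 fold change 1.51, SE 0.11, adjusted p = 2.18e-13). Of 43 tested TRIM genes, many of which encode antiviral ubiquitin ligases, 15 (34.9%) were called higher and 3 (6.98%) lower. Trim12a (log2 1.15, SE 0.17) and Trim12c (log2 1.09, SE 0.12), near-identical copies whose reads may be shared, were at least 2-fold higher. Hymeglusin replicate 1 was the highest library for Irf7, Ddx58 and Ifi27.

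Feedback regulators of signalling went both ways. Dusp8, a phosphatase of stress-activated kinases, rose from 14.5, 15.7 and 17.7 to 48.8, 46.1 and 49.1 CPM (log2 fold change 1.59, SE 0.077, adjusted p = 2.03e-18), and Dusp1 from 30.4, 33.6 and 28.8 to 52.4, 48.7 and 52.8 CPM (log2 0.73, SE 0.068). The family of dual-specificity phosphatases and Sprouty proteins gave 11 higher and 6 lower of 25, although its median log2 fold change was -0.07, and 0.04 with total-count scaling. Socs2, a brake on growth hormone signalling, fell from 21.9, 23.04 and 23.7 to 7.90, 9.26 and 9.98 CPM (log2 fold change -1.33, SE 0.096, adjusted p = 6.48e-14), and Btg2, an antiproliferative early response gene, rose from 11.2, 9.17 and 8.27 to 20.9, 19.99 and 16.96 CPM (log2 1.02, SE 0.11). Rgs11, a regulator of G protein signalling, fell from 106, 106 and 108 to 59.3, 54.1 and 64.02 CPM (log2 -0.85, SE 0.058). Galectin genes Lgals9 (log2 1.55, SE 0.14) and Lgals1 (log2 0.63, SE 0.057) rose, the former from 5.82, 3.57 and 3.67 to 13.01, 12.1 and 12.6 CPM and the latter from 336, 288 and 310.1 to 499.6, 435 and 513 CPM.

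Smaller shares of lncRNA and microRNA genes than of protein-coding genes passed the threshold, in a comparison not matched for level. Of 619 tested lncRNA genes, 9.05% were called higher and 10.8% lower, against 24.8% and 25.4% of 12034 protein-coding genes. Of 28 tested microRNA genes 1 was called higher and 4 lower. Mir7686 fell from 3.36, 3.39 and 3.54 to 0.734, 0.7 and 0.515 CPM and Mir5125 from 16.6, 17.2 and 16.8 to 11.9, 11.6 and 12.6 CPM. Without a stated strand setting, reads from these loci cannot be told from those of overlapping transcripts. Of 17 tested host genes of small nucleolar RNAs, 8 (47.1%) were called higher and 2 (11.8%) lower, beside 23.8% and 24.5% of all tested genes. Snhg12 went from 6.33, 5.92 and 6.11 to 9.79, 9.56 and 9.06 CPM and Snhg11 from 142, 148 and 159.9 to 108, 118 and 108 CPM.

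Genes switched on were defined as those under 0.5 CPM in each DMSO library and at least 1 CPM in each hymeglusin library. There were 9, and 1 gene met the reverse rule. They were chosen by the contrast itself, so their values are a description. Csf1r, the receptor of macrophage colony-stimulating factor, had 9, 10 and 2 counts with DMSO and 77, 79 and 66 with hymeglusin. Nlrp10, a member of the NOD-like receptor family, had 5, 5 and 3 counts with DMSO and 53, 53 and 57 with hymeglusin, and Lama5, a laminin chain of basement membranes, 4, 12 and 10 counts with DMSO and 49, 80 and 54 with hymeglusin. Eng, which encodes the TGF-beta co-receptor endoglin, had 8, 14 and 4 counts with DMSO and 54, 40 and 45 with hymeglusin. Sp100, a nuclear body protein induced by interferon, had 0, 5 and 10 counts with DMSO and 47, 40 and 39 with hymeglusin, and the other 4 genes, A930017K11Rik, Rapgefl1, Samd4 and Tmem151a, had 2 to 15 counts with DMSO and 32 to 56 with hymeglusin. Ppp1r3g, a glycogen-targeting subunit of protein phosphatase 1, was the gene switched off, with 26, 42 and 47 counts with DMSO and 14, 11 and 17 with hymeglusin. The rule is tight: with an upper limit of 0.25 CPM in the off state, 1 gene was switched on and 0 off, and with at least 2 CPM in the on state 0 and 0. Leaving out DMSO replicate 1 gave 16 on and 4 off, and leaving out hymeglusin replicate 3 gave 5 off. Leaving out DMSO replicate 2 or hymeglusin replicate 1 gave 2 off. Leaving out DMSO replicate 3 moved the log2 fold change of Sp100 from 2.85 to 3.90, and leaving out DMSO replicate 2 that of Rapgefl1 from 2.33 to 3.05.

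Csf1r is also a macrophage marker. Of the other 6 markers of that list, Ptprc had 0 counts in each DMSO library and 4, 3 and 2 with hymeglusin, and Adgre1, Cd163 and C1qa had counts only in hymeglusin replicate 3, at 1, 3 and 4. Lyz2 had 1, 0 and 0 counts with DMSO and 0, 4 and 1 with hymeglusin, and Cd68 had 8 to 17 with DMSO and 12 to 19 with hymeglusin. The summed level of the 7 macrophage markers was 0.536 to 1.15 CPM with DMSO and 2.60 to 3.50 CPM with hymeglusin. Whether another cell type had a part in the Csf1r counts was not tested beyond these values.

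More genes had a count at all with hymeglusin. Between 16557 and 16933 genes had at least 1 count in the hymeglusin libraries and between 15258 and 15542 in the DMSO libraries, although the deepest of the 6 libraries was DMSO replicate 2. Genes at 0 in all DMSO libraries with a count in at least 1 hymeglusin library numbered 2246, against 555 the other way, and 273 against 11 had a count in all 3 libraries of the other group. The 2 named genes with the most counts were Col12a1 and Vdr. Col12a1, a collagen of tendon and skin, had 0 counts with DMSO and 22, 17 and 10 with hymeglusin, and Vdr, the vitamin D receptor, 0 and 14, 8 and 19. No fold is given against these counts of 0.

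The excess narrowed with rising level. Summed over the 3756 genes with a mean under 0.05 CPM, the hymeglusin level was 2.28 times the DMSO level. The ratio was 1.54 at 0.05 to 0.2 CPM, 1.30 at 0.2 to 0.5, 1.20 at 0.5 to 1, 1.11 at 1 to 3, 1.05 at 3 to 10, and 0.928 for the 9281 genes at 10 CPM or more. In each of these bins the 3 hymeglusin sums lay on 1 side of the 3 DMSO sums. Receptor genes of other tissues gave a mixed picture. The number of olfactory receptor genes with a count was 37 to 43 with DMSO and 67 to 72 with hymeglusin, of 1117 in the table, while their summed level on total-count scaling was 29.4 to 29.8 CPM with DMSO and 22.5 to 24.3 CPM with hymeglusin. Keratin-associated protein genes had at most 1 of 54 with a count in any library. Among counts from 1 to 10, 63.4% were even, and the value 2 was found 6350 times and the value 1 3043 times. Whether 1 fragment could add 2 to a count is not given in the sources used here, so single counts at this end carry little weight.

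**Figure D5:**
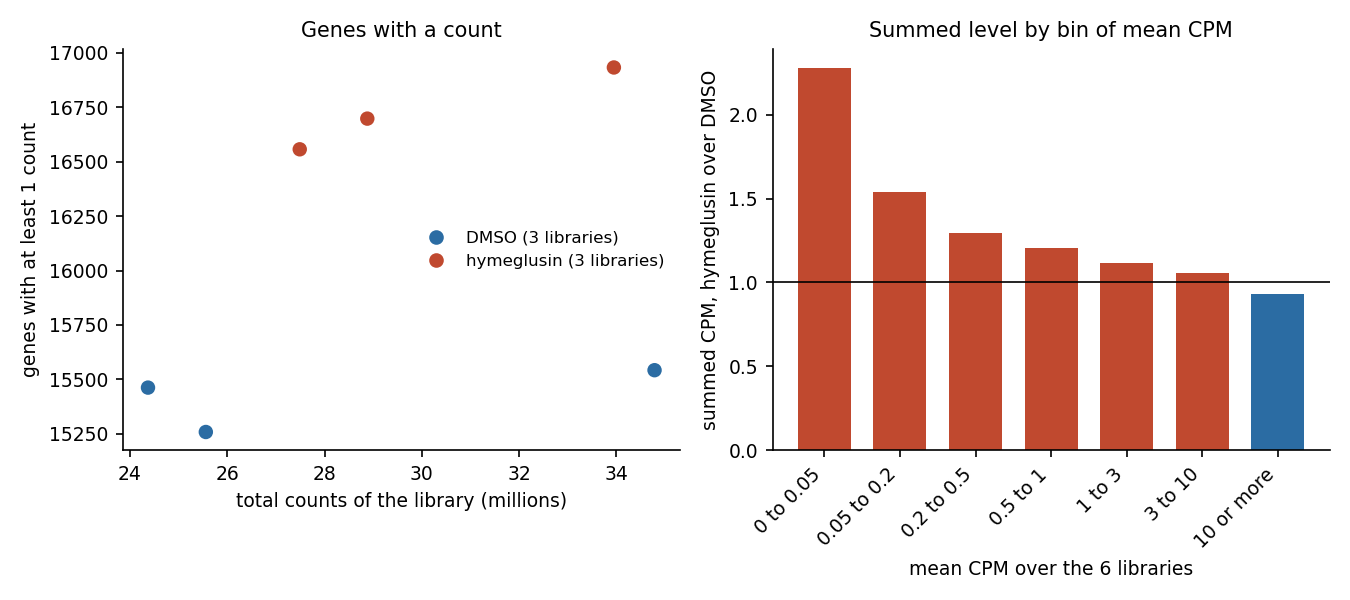
Left, genes with at least 1 count against total counts (in 1e6), 1 point per library, with DMSO in blue and hymeglusin in red. Right, summed CPM with hymeglusin over DMSO for genes binned by mean CPM, where 1 means no difference. The hymeglusin libraries hold 16557 genes or more at any depth, and the ratio falls from 2.28 in the lowest bin to 0.928 in the highest.

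A pair of gene properties moved with the calls. By length of the longest transcript, in 5 bins of equal size, 15.4% of the shortest and 28.4% of the longest genes were called higher, while the share called lower was 23.8% to 24.9% in each bin. An offset for a smooth trend on length left 3073 genes higher and 3205 lower. By chromosome, genes on X were called higher in 12.5% and lower in 34.3% of 449 cases (median log2 fold change -0.09), and on the autosomes 18.7% to 27.9% were called higher and 20.6% to 28.3% lower. The cause of these differences was not tested.

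Genes that changed at least 2-fold in the tumour line were detected in the primary Leydig cells less often than all tested genes. A level of at least 1 CPM in both libraries of primary cells from mice aged 2 months was reached by 90.8% of all tested genes, by 66.0% of those at least 2-fold higher and by 64.2% of those at least 2-fold lower. Over genes under 5 CPM in MLTC-1 cells the shares were closer, at 65.1%, 59.5% and 47.4%. Of the 9 genes switched on, 5 reached that level in the primary cells, Csf1r at 1.65 and 2.31 CPM and Samd4 at 49.3 and 77.6 CPM among them. Ppp1r3g, the gene switched off, had 0 counts in both primary libraries.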

How the data were processed

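Libraries were made with the NEBNext Ultra kit from RNeasy-purified RNA, per the labels' protocols. The authors deposited a table of raw counts, whole numbers for each symbol. The submitters' processing notes name featureCounts 2.0.6, HISAT2 2.2.1, FastQC 0.12.1, fastp 0.23.4 and the build mm10. How featureCounts treated strand, and with which annotation, is not given in the sources used here, so overlapping genes and near-identical copies are uncertain. The table held 25239 symbols, 0 of them duplicated, and 0 columns belonged to no sample.

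The 6 MLTC-1 libraries were fitted with edgeR 4.0.16 in R 4.3.3: filterByExpr (minimum count 10, total 15), TMM scaling, robust quasi-likelihood F-test, two-sided, Benjamini-Hochberg adjustment over all 12873 genes tested, threshold 0.05. Adjusted p-values in the text come from this test, and a log2 fold change is hymeglusin over DMSO whose SE is its absolute value over the root of F. The fit was tested on simulated data. Replicate pairs differed by more than counting noise (chi-square per degree of freedom 3.44 to 7.67), so no library was counted as a duplicate of another. Same-numbered libraries did not deviate together (r = 0.00239, -0.0245 and 0.0318 over genes), so numbers were not used as pairs.

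A total of 78 families were formed from gene symbols alone, in 4 blocks, and their counts are descriptions beside the counts over all genes. A few families and genes are not reported here. Genes were named by rule: per block and direction the 8 largest folds among called genes with a mean of at least 4 CPM and groups that do not overlap, up to 2 genes per family and direction by adjusted p (clone names and pseudogenes left out), and all genes switched on or off. The comparison, families and rules were chosen with earlier results of these data known. Gene positions and promoters are from RefSeq on GRCm38.p6 and transcript lengths from GENCODE M21, which covered 98.1% of tested genes. Alternatives were total-count, upper-quartile and RLE scaling, limma-voom (limma 3.58.1), DESeq2 1.42.0, 2 other count filters, the replicate number as a block, a length offset (loess, span 0.3), other levels for on and off, and leaving out each library.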

Additional observations from a re-analysis of the deposited data

How the results depend on the processing

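Of 331 genes named by the rule, 300 kept direction and call under each of the 15 alternative fits in which they were tested, 31 lost the call under at least 1, and 0 reversed. Of the 80 with the largest folds per block, 0 lost a call. These 80 had been chosen for large folds and groups that do not overlap in the main fit of the same libraries. A lost call was therefore unlikely from the start. With total-count scaling 4659 genes were called higher and 1996 lower. Without a count filter, 567 genes were at least 2-fold higher, 83 of them surface proteins. With a mean of at least 5 CPM, at least 2-fold changes numbered 76 higher and 67 lower over all genes, 6 and 1 among transcription factors, 2 and 3 among secreted proteins and 8 and 11 among surface proteins, since fewer genes were tested. With the replicate block 3127 genes were called higher and 3233 lower, 374 and 148 at least 2-fold, and 6188 of 6218 calls were shared. Same-numbered libraries share only a number.

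Leaving out 1 library gave 2644 to 2913 genes higher, 2753 to 3074 lower, 366 to 429 at least 2-fold higher and 146 to 169 lower. It gave 16 to 23 transcription factors at least 2-fold higher and 3 to 5 lower, 26 to 33 secreted proteins higher and 8 to 13 lower, and 48 to 60 surface proteins higher and 18 to 23 lower. Genes switched on numbered 12 to 16 and off 1 to 5 in these settings, since fewer libraries had to meet the rule. With under 0.25 CPM as the off level 1 was switched on and 0 off, with at least 2 CPM as the on level 0 and 0, and with total-count scaling 0 off. In a library with 0 counts a gene may be present at up to 3 counts, 0.0862 to 0.123 CPM, so changes under that level could not be seen.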
